A study of Mus musculus with 8 samples.

Results

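The Ebf genes (Ebf1, Ebf2, Ebf3 and Ebf4) encode the early B cell factors, also called the Olf-1/EBF family, and were followed here in the olfactory bulb of mice. All 5 probes that carry the name of one of them were taken from the noncontrol probes of the array, which makes 4 of 34797 gene names and 5 of 55681 probes. Ebf1, Ebf2 and Ebf3 have 1 probe each and Ebf4 has 2, named the brighter and the dimmer Ebf4 probe. The family was chosen with the levels of its probes in these groups already known, and Ebf2 is also a gene that the study picked on these arrays, so the values are a description and no test was made on them.

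The 4 groups were male C57BL/6J mice without genetic modification, whose dams and litters had standard cages in the groups C-C and C-DE, and larger cages with toys and a running wheel in the groups EE-C and EE-DE, before and after weaning. Clean air was given to C-C and EE-C mice. The air of C-DE and EE-DE mice carried diesel exhaust, 90 µg/m3, on 28 days from postnatal day 28 to 55 with 8 h of exposure a day. Bulbs were taken at 56 days of age. RNA was pooled within each group, from 9 EE-DE, 8 EE-C, 7 C-DE and 7 C-C mice, and every pool was divided over 2 one-colour Agilent arrays. The methods speak of independent litters but give fewer rearing cages, each with a dam and her pups, than mice, so pools of the same rearing may share dams. A group is therefore 1 pool. By the methods the 2 arrays received the same RNA, and their spread would then be technical and hold nothing of the spread between mice, so no p-value is given. Genes of the olfactory mucosa differed up to 2.35-fold as a list between arrays of the same pool, in EE-C, and whether the arrays truly share 1 RNA was not tested, which bears on every range over pairings below.

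Ebf proteins are transcription factors that bind DNA as dimers, through a zinc-containing domain and a helix-loop-helix, at a palindromic site. The family is known from early B cells, where Ebf1 is needed for the lineage, and from the olfactory epithelium of the nose, where Olf-1 was identified as the protein bound to the Olf-1 sites of genes for odour signalling. Members of the family are also expressed in other tissues, among them fat, bone marrow stroma, blood vessel walls and parts of the developing brain. The olfactory bulb receives the axons of the sensory neurons of the nose, and its own relay cells are the mitral and tufted cells. In RNA from a whole tissue, fewer cells of a type and less RNA per cell cannot be told apart.

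The probes are 60 bases long, and the positions below are those of the array's annotation on the mouse genome build mm9. Sequences of 4 probes are shown to tell which transcript a value belongs to, since the family's members are similar proteins. For the Ebf1, Ebf2 and Ebf3 probes the first 30 bases are given and for the dimmer Ebf4 probe all 60.
Ebf1 (NM_007897, chr11:44818438-44818497, plus strand): agggtgttggttaaagttgtaacccccgag
Ebf2 (NM_010095, chr14:68048145-68048204, plus strand): ttggttgtgtttcttggactcttaagactc
Ebf3 (NM_010096, chr7:144385490-144385549, minus strand): accgagagcttcactaaatggtagattttg
Ebf4, dimmer probe (NM_001110513, chr2:130187371-130187430, plus strand): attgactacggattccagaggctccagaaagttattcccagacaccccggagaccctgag
Between any pair of these probes the longest shared run was 8 bases, and matches to whole transcripts of other genes were not analysed here. The G and C content was 40% for Ebf1 and Ebf2, 38.3% for Ebf3, and 43.3% and 53.3% for the brighter and dimmer Ebf4 probes. The probes lie on 4 chromosomes. Whether they fall in coding exons or untranslated parts was not analysed here.

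Each level is the log2 of the background-corrected signal minus that of the 75th percentile over the array's noncontrol spots, so 0 is the signal of a probe at that percentile. The 75th percentile lay between 644 and 716 intensity units. Precision is limited by the number of arrays, 2 per pool. The first EE-DE array had 56.7% of its noncontrol spots well above background, against 68.0% to 70.6% on the other 7, so changes of Ebf probes that involve it are also given without it. The slide was shared by the 8 arrays, and its columns coincided with the cages of rearing, so column and rearing cannot be told apart. Markers of the bulb were present: 7 of 7 mitral and tufted cell genes and 8 of 8 genes of periglomerular and granule interneurons were well above background on all 8 arrays.

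On each of the 8 arrays all 5 Ebf probes were well above background without an outlier flag. The background for the counts below are the 21709 probes with a GenBank or RefSeq accession that met the same conditions. They were not equally far above it. The signal error that the scanner software gave was 10.0% to 10.4% of the signal for Ebf1, Ebf2, Ebf3 and the brighter Ebf4 probe, and 12.3% to 21.3% for the dimmer Ebf4 probe.

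Ebf2 differed most among the pools. The processed signals were 187.2 and 140.5 on the C-C arrays, 85.3 and 106.6 on the C-DE arrays, 151.1 and 113.7 on the EE-C arrays and 185.9 and 220.9 on the EE-DE arrays. As log2 levels, these were −1.80 and −2.33 for C-C, −2.92 and −2.63 for C-DE, −2.12 and −2.61 for EE-C, and −1.95 and −1.61 for EE-DE. Both C-DE arrays were below all others, while those of the other 3 pools overlapped in part: the first EE-C array was above the second C-C array, and the first C-C array was above the first EE-DE array. The pool means ran from −2.77 in C-DE over −2.37 in EE-C and −2.07 in C-C to −1.78 in EE-DE, a span of 1.00 on the log2 scale or 1.99-fold. Of the 21709 probes, 484 (2.23%) had pool means that spanned at least 1.5-fold.

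Ebf3, a close relative of Ebf2, had the same order of the pools over a smaller span. Its log2 levels were −0.17 and −0.31 for C-C, −0.56 and −0.64 for C-DE, −0.35 and −0.55 for EE-C, and −0.27 and −0.10 for EE-DE. Both C-DE arrays were again the lowest, although the second EE-C array was only 0.01 above the first C-DE array. The pool means of C-C (−0.24) and EE-DE (−0.19) lay closer than the arrays within either pool.

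Ebf1, the member best known from B cells, had levels of −1.60 and −1.67 for C-C, −1.96 and −1.88 for C-DE, −1.63 and −1.85 for EE-C, and −1.69 and −1.70 for EE-DE. The C-DE arrays were the lowest, and the pool means of the other 3 pools lay within 0.11 of each other, with C-C the highest.

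The Ebf4 probes lay at different levels but had the C-DE pool lowest and the EE-DE pool highest alike. The brighter one had −0.77 and −0.88 for C-C, −0.98 and −0.89 for C-DE, −0.72 and −0.76 for EE-C, and −0.76 and −0.63 for EE-DE. Here the second C-DE array was within 0.01 of the second C-C array. The dimmer one, with signals of 22.2 to 32.7 intensity units, had −4.65 and −4.58 for C-C, −4.86 and −4.84 for C-DE, −4.70 and −4.62 for EE-C, and −4.45 and −4.59 for EE-DE.

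**Figure D1:**
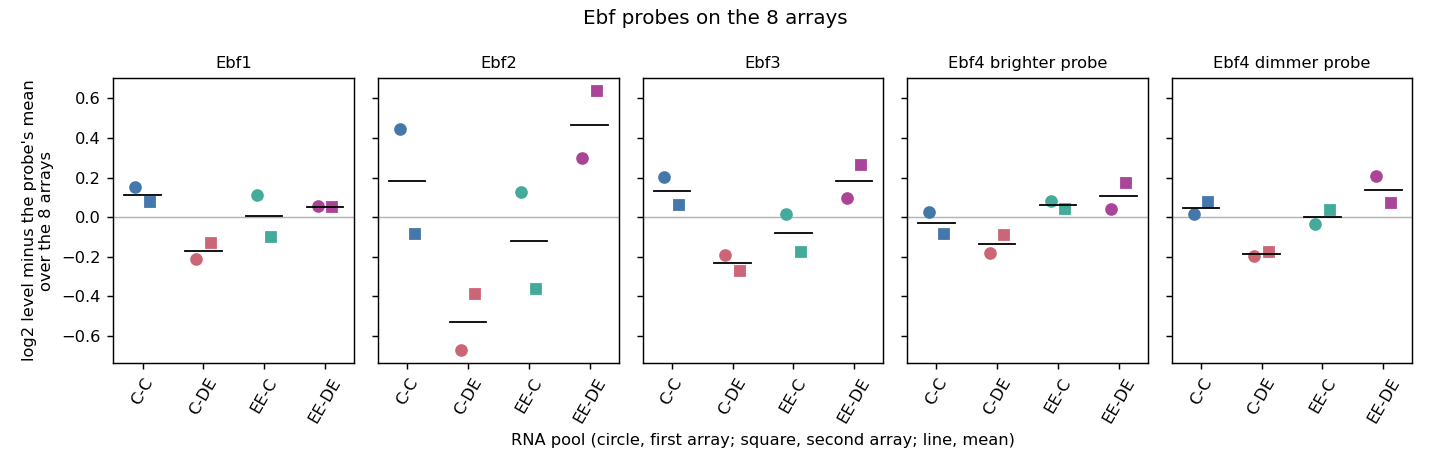
Log2 level of each Ebf probe minus its mean over the 8 arrays (vertical axis) in the 4 RNA pools (horizontal axis). Circles are the first array of a pool, squares the second, and lines the mean of both. In each panel the line of C-DE is the lowest, and the highest line lies 1.00 above it for Ebf2, against 0.24 to 0.41 for the other probes.

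C-DE was thus the lowest pool for all 5 Ebf probes, as it was for 25.8% of the 21709 probes. C-DE was lowest and EE-DE highest for 4 of the 5, a pattern found in 7.56% of all probes. Because the family was picked with these levels known, its count is set beside these shares without a test.

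The comparison C-DE/C-C shows the difference between exhaust and clean air in mice from standard cages. Ebf2 fell by 0.71 on the log2 scale (−1.12 to −0.30 over the 4 pairings of a C-DE with a C-C array), which is 1.64-fold, and 60 of the 21709 probes, itself included, were as low or lower. Its change was −0.44 without the first C-C array and −0.57 without the first C-DE array, both short of the 1.5-fold threshold (0.58 on the log2 scale), and −0.97 and −0.85 without the second arrays. Of the 5 Ebf probes, 1 changed at least 1.5-fold, against a background of 0.576% of all probes (0.433% lower).

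The other members stayed under 1.5-fold in the same comparison. Ebf3 had a log2 change of −0.36 (−0.47 to −0.25), Ebf1 of −0.29 (−0.36 to −0.21), the dimmer Ebf4 probe of −0.23 (−0.27 to −0.19) and the brighter one of −0.10 (−0.20 to −0.01). All 5 probes were lower in each of the 4 pairings, which 22.4% of all probes were. The median over the 5 was −0.29, beside −0.01 over all probes.

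The comparison EE-DE/EE-C shows exhaust against clean air in mice from enriched cages. Ebf2 rose by 0.59 (0.17 to 1.00), just over the threshold. The change was 0.42 without the second EE-DE array, 0.34 without the second EE-C array, 0.76 without the first EE-DE array and 0.83 without the first EE-C array. It was the 1 Ebf probe of 5 past 1.5-fold, with a background of 0.944% (0.608% higher). Ebf3 had a change of 0.26 (0.08 to 0.44) and the dimmer Ebf4 probe of 0.14 (0.03 to 0.24). Ebf1 and the brighter Ebf4 probe had changes of 0.05 and 0.04, with ranges that include 0. Without the first EE-DE array, the change was 0.35 for Ebf3, 0.07 for the dimmer and 0.11 for the brighter Ebf4 probe and 0.04 for Ebf1. In all, 3 of 5 probes were higher in each pairing, as were 14.6% of all probes, and the median over the 5 was 0.14.

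EE-DE/C-DE sets the exposed pools against each other. For 4 of the 5 probes these were the lowest and the highest pool, while Ebf1 was highest in C-C. Ebf2 was higher in EE-DE by 1.00 (0.69 to 1.31), past 1.5-fold in each of the 4 pairings, which held for 0.175% of all probes, and 48 probes were as high or higher. It was the 1 of 5 Ebf probes past 1.5-fold here, against 0.636% of all probes (0.557% higher). Ebf3 had a difference of 0.41 (0.29 to 0.54), the dimmer Ebf4 probe of 0.33 (0.25 to 0.40), the brighter one of 0.24 (0.13 to 0.35) and Ebf1 of 0.23 (0.18 to 0.27). All 5 were higher in each pairing, as were 21.2% of all probes. Without the first EE-DE array the differences were 1.16 for Ebf2, 0.50 for Ebf3, 0.31 and 0.26 for the brighter and dimmer Ebf4 probes and 0.22 for Ebf1.

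In the comparison of the clean-air pools, EE-C/C-C, no Ebf probe passed 1.5-fold, which 0.825% of all probes did. Ebf2 had a difference of −0.30 with a range of −0.81 to 0.21, and Ebf3 of −0.21 (−0.38 to −0.05). The brighter Ebf4 probe had 0.09 (0.02 to 0.17), Ebf1 −0.11 and the dimmer Ebf4 probe −0.05, the last pair with ranges that include 0. In EE-DE/C-C, again with 0 of 5 past 1.5-fold (0.815% of all probes), Ebf2 had a difference of 0.29 (−0.15 to 0.72), the brighter Ebf4 probe of 0.14 (0.02 to 0.26), the dimmer one of 0.09, Ebf3 of 0.05 and Ebf1 of −0.06. Without the first EE-DE array these were 0.45, 0.20, 0.02, 0.13 and −0.06 in the same order. The comparisons share pools and are not independent of each other.

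The Ebf2 changes with exhaust were opposite in sign, and the signed difference, EE-DE/EE-C minus the change in standard cages, was 1.30 (1.46 without the first EE-DE array, and 1.03 to 1.56 with each of the 8 arrays left out). In this difference 35 probes were as high or higher, and 1.15% of all probes were at least 1.5-fold higher. For 3 of the 5 probes, Ebf2, Ebf3 and the dimmer Ebf4 probe, the exhaust pool was the lower in every pairing in standard cages and the higher in every pairing in enriched ones, as for 2.16% of all probes. Each group is 1 pool, so this difference between changes was not tested.

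**Figure D2:**
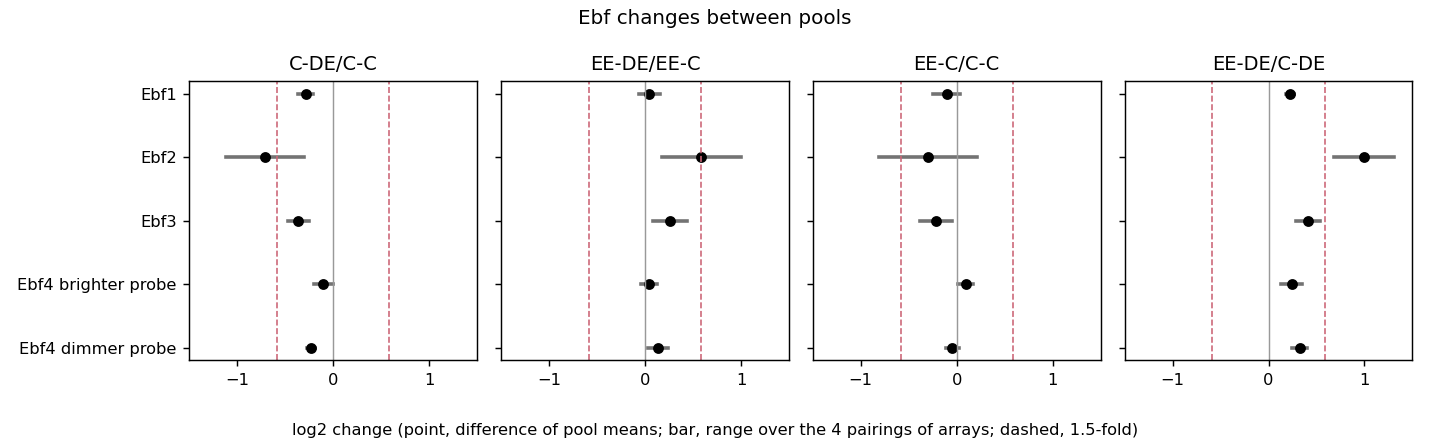
Log2 change of each Ebf probe (horizontal axis) in 4 comparisons of pools. Points are differences of pool means, bars the range over the 4 pairings of arrays, and dashed lines 1.5-fold. The bar of Ebf2 lies wholly past a dashed line only in EE-DE/C-DE, at 0.69 to 1.31.

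Genes that work with Ebf factors had median changes near 0. A list of 8 partners was read: Zfp423 and Zfp521, zinc finger proteins that bind Ebf proteins, Tcf3, Foxo1, Runx1, Ets1 and Pax5, which act beside Ebf1 in early B cells, and Prdm16, which acts beside Ebf2 in brown fat. For 7 of these genes 14 probes passed, and Pax5 was well above background on at most 1 array. With exhaust the median change was −0.03 in standard and 0.02 in enriched cages, and it was 0.03 for EE-DE/C-DE, with 0 of 14 probes past 1.5-fold in any of them. The exception in a further comparison was a dim Runx1 probe, with 0.60 in EE-DE/C-C (0.56 without the first EE-DE and 0.48 without the first C-C array), while the other Runx1 probe had −0.25.

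Genes of the sensory neurons whose promoters are known for Olf-1 sites were Omp, the olfactory marker protein, Gnal and Adcy3, the G protein subunit and adenylyl cyclase of odour signalling, and Cnga2, a subunit of the channel opened by cyclic AMP. In C-DE/C-C all 5 probes of these 4 genes had values below 0 and none passed 1.5-fold. Cnga2 had −0.51 (−0.66 to −0.36), the Gnal probes −0.20 and −0.19, Omp −0.13 (−0.34 to 0.09) and Adcy3 −0.06 (−0.17 to 0.06). Without the first C-DE or the first C-C array 4 of the 5 were below 0, and without the second C-C array 1 was lower by 1.5-fold. In EE-DE/EE-C all 5 lay between 0.04 and 0.12, but 4 of the 5 were below 0 without the second EE-C array (median −0.01). In EE-DE/C-DE Cnga2 had 0.54 (0.29 to 0.80) and Omp 0.20 (0.07 to 0.33), while Adcy3 had −0.02.

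Of 8 genes that Ebf1 is known to act on in B cells, 4 passed the filter, each with 1 probe. Vpreb3, a protein of the early B cell receptor, had −0.36 in C-DE/C-C (−0.59 to −0.13) and rose by 0.61 in EE-DE/C-DE (0.49 to 0.73), but by 0.56 without the second EE-DE and 0.55 without the first C-DE array, both short of 1.5-fold. Cd79b had −0.17 in C-DE/C-C, Cd79a 0.04 and Vpreb1 −0.12, each under 1.5-fold in all 5 comparisons. Pax5, Blk and Igll1, which define B cells and their precursors, were well above background on at most 1 of 8 arrays. Summed over the 5 genes of the B cell list that passed, levels were 1.27 to 1.30 in C-DE and 1.31 to 1.44 in C-C, in units of the 75th percentile, with 1.14 to 1.32 in EE-C and 1.30 to 1.36 in EE-DE.

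Genes of the olfactory mucosa, the lining of the nose, moved with Ebf2. A list of supporting cells and glands of the mucosa, with 13 passing probes of 11 genes, fell past 1.5-fold at all 13 probes in C-DE/C-C (median −1.20). All 13 were below 0 with each array of these pools left out, and the count past 1.5-fold was then 11 to 13. All 13 were above 0 in EE-DE/EE-C and 9 of them past 1.5-fold (median 0.72), but 3 were higher in all 4 pairings. That median was 0.13 without the second EE-C array, with 0 probes past 1.5-fold, and 0.40 without the second EE-DE array, with 4, while all 13 passed without the first array of either pool. In EE-DE/C-DE all 13 rose past 1.5-fold (median 1.59) and were higher in each pairing. Between the clean-air pools, in EE-C/C-C, all 13 were below 0 and 3 were lower by 1.5-fold, those of Umodl1 (−0.71), Cyp2g1 (−0.69) and the brighter Sec14l3 probe (−0.64). None of the 13 was lower in all 4 pairings there, and the median of −0.32 was −0.90 and 0.27 without the first and second EE-C array, and 0.00 and −0.68 without the first and second C-C array. In EE-DE/C-C all 13 were above 0 and 2 were past 1.5-fold (median 0.39), with 0 higher in all 4 pairings and medians of 0.05 to 0.77 with each array left out. Of the 12 genes of this list, 8 had been chosen from these same arrays in the study, and its counts are no independent evidence of a direction. By RT-PCR the study reported Cyp2f2, Aqp3, Mslnl, Krt18 and Umodl1 as significantly lower in C-DE than in C-C. For these genes it reported no significant effect of exhaust in enriched mice. The largest change was that of Cyp2g1, a cytochrome P450 of the olfactory mucosa, with −1.59 (−2.29 to −0.88) for C-DE/C-C and 1.30 (−0.13 to 2.73) for EE-DE/EE-C. The keratin gene Krt18 had −1.25 (−1.79 to −0.71) and 0.79 (−0.03 to 1.61), and Krt8 had −1.40 (−1.92 to −0.89) and 0.58 (−0.32 to 1.48). The levels summed over the list were 8.74 to 14.9 in C-C, 4.63 to 5.80 in C-DE, 6.38 to 13.9 in EE-C and 12.3 to 19.8 in EE-DE. Each of these 13 probes was well above background on every array, and the part of these cells in the Ebf values was not tested.

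The list of olfactory sensory neurons, with 14 passing probes of 11 genes, had medians of −0.19 with exhaust in standard cages, 0.15 with exhaust in enriched cages and 0.20 for EE-DE/C-DE. The first of these was −0.11 without the first and −0.26 without the second C-C array. In standard cages 12 of these 14 probes were below 0, and 3 fell past 1.5-fold: Cnga4 by 0.95, 1 of 3 Cngb1 probes by 0.91 and Ano2 by 0.90. Each was lower in all 4 pairings, and the smallest difference was 0.51 for Cnga4 and 0.55 for Ano2, short of 1.5-fold. Cnga4 and Cngb1 are the other subunits of the channel that holds Cnga2, and Ano2 is the chloride channel opened after it. Of the 13 genes of this list the study had picked 1 on these arrays, Cnga4. The other Cngb1 probes had 0.17 (−0.26 to 0.60) and −0.13 (−0.28 to 0.03). In EE-DE/EE-C Cnga4 (0.03 to 1.41) and Ano2 (0.06 to 1.38) both rose by 0.72, but 0 of the 14 probes passed 1.5-fold without the second EE-DE or the second EE-C array, and without the latter the median was 0.00. In EE-DE/C-DE Cnga4 rose by 1.26, Ano2 by 1.22 and the same Cngb1 probe by 0.94, while the other Cngb1 probes had 0.15 and −0.05. The summed level of the list was 170 to 196 in C-C, 171 to 195 in C-DE, 192 to 199 in EE-C and 204 to 206 in EE-DE in units of the 75th percentile. The 6 passing probes for immature sensory neurons and precursors had medians of −0.09 and −0.03 with exhaust in standard and enriched cages, and 0 passed 1.5-fold.

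Genes of the bulb's own cells had medians near 0. Mitral and tufted cell genes (9 probes) had medians of 0.04 with exhaust in standard and 0.01 in enriched cages, genes of periglomerular and granule interneurons (10 probes) 0.01 and −0.05, and genes of olfactory ensheathing cells, the glia around the incoming axons (7 probes), −0.02 and −0.01. No probe of these lists passed 1.5-fold in any of the 5 comparisons.

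Other tissues in which Ebf genes are expressed were read from lists as well. The mural cell list, the cells of blood vessel walls, had 11 probes with medians of −0.04 and −0.07 for the same pair of comparisons, and its 1 gene past 1.5-fold was Abcc9, a subunit of a potassium channel, with −0.71 in EE-C/C-C (−1.40 to −0.03, and −0.08 without the first EE-C array). Endothelial cells (9 probes) had medians of 0.00 and 0.04. Meninges and fibroblasts (8 probes) had −0.03 and −0.06, with decorin (Dcn) past 1.5-fold at 0.66 in EE-DE/EE-C (0.11 to 1.20, and 0.17 without the first EE-C array). The bone list (10 probes) had −0.41 and 0.27, and 3 probes were lower by 1.5-fold or more with exhaust in standard cages, those of Bglap (−0.62, −1.75 to 0.52) and Bglap2 (−0.67, −1.79 to 0.45), which encode osteocalcins, and 1 of Acp5 (−0.67, −1.52 to 0.18), an enzyme of osteoclasts. None of the 10 bone probes was lower in all 4 pairings of this comparison, and 0 passed 1.5-fold without the first C-DE or the first C-C array, where the median was −0.02 and −0.05, and 6 without the second array of either pool. The median of 0.27 in enriched cages was 0.01 without the second EE-C array, 0.15 and 0.14 without the first and second EE-DE array, and 0.42 without the first EE-C array. Bglap and Bglap2 were about as low between the clean-air pools, with −0.64 (−1.57 to 0.28) and −0.59 (−1.37 to 0.20) in EE-C/C-C, where neither passed 1.5-fold without the second EE-C or the first C-C array. The same Acp5 probe had 0.62 in EE-DE/C-DE, and 0.33 without the second EE-DE and 0.28 without the first C-DE array. The study had picked 3 of the 12 bone genes on these arrays.

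Over the 8 arrays, the level of Ebf2 was compared with that of the other probes whose pool means spanned at least 1.5-fold, 483 in all. The 5 gene names with the highest Pearson's r were Cnga4 (0.991), Krt18 (0.989), Ano2 (0.985), Umodl1 (0.985) and Mslnl (0.977), so they mix channel genes of sensory neurons with genes of the mucosa list. Of the first 20 gene names, 11 were in the list of supporting cells and glands and 3 in the list of sensory neurons, and 33 probes reached an r of 0.9. The study had picked Ebf2, 8 of the 12 supporting cell and gland genes and 1 of the 13 sensory neuron genes on these arrays. All 13 passing probes of the supporting cell and gland list were among those compared. These counts are therefore no independent evidence of a likeness. The arrays are 4 pools with 2 arrays each and the same arrays give both levels, so these values have no p and describe this set of arrays.

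The other members followed the same lists less closely. The r with the mean of the supporting cell and gland list was 0.98 for Ebf2, 0.93 for Ebf3, 0.88 for Ebf1, 0.80 for the brighter Ebf4 probe and 0.60 for the dimmer one. With the sensory neuron list it was 0.99, 0.92, 0.86, 0.80 and 0.58 in the same order, and with the mitral and tufted cell list 0.19, −0.01, −0.19, 0.40 and −0.38. Ebf3 had 0.95 with the B cell list, against 0.89 for Ebf2 and 0.78 for Ebf1. The differences between these coefficients were not tested.

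**Figure D3:**
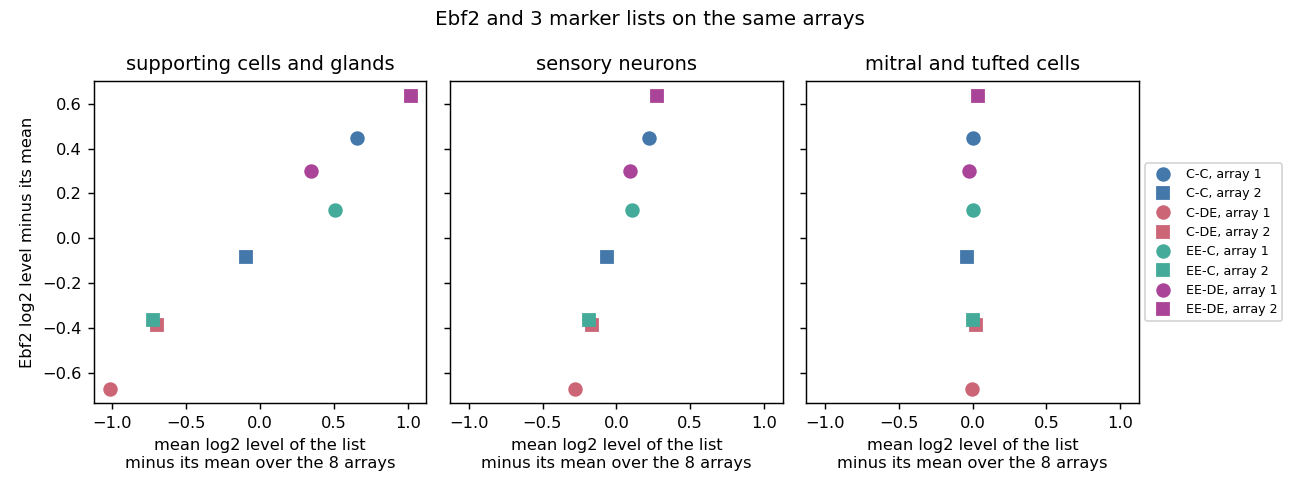
Log2 level of Ebf2 minus its mean over the 8 arrays (vertical axis) against the mean log2 level of 3 marker lists, likewise centred (horizontal axis). Colours are pools, circles the first array and squares the second. The points follow a line for supporting cells and glands and, over a narrower range, for sensory neurons, and stand upright for mitral and tufted cells.

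Several lists also differed between the 2 arrays of a pool. Ebf2 was higher on the first array of C-C by 0.53 and of EE-C by 0.49, and lower on the first array of C-DE by 0.28 and of EE-DE by 0.34. Duplicates as far apart were found in 1.06% of all probes for C-C, 2.98% for EE-C, 5.50% for C-DE and 5.06% for EE-DE. The mean of the supporting cell and gland list differed between the arrays of the same pool by 0.75 in C-C and 1.23 in EE-C and by −0.32 in C-DE and −0.68 in EE-DE, taken as first minus second, and the sensory neuron list by 0.28, 0.30, −0.11 and −0.18 in this order. The bone list, with 0.57, 0.37, −0.52 and −0.11, and the immature neuron list, with 0.18, 0.12, −0.05 and −0.04, had the same signs, and the bone list differed more than the sensory neuron list in 3 of the 4 pools. Ebf2 and the brighter Ebf4 probe had the sign of the supporting cell and gland list in 4 of 4 pools, Ebf1 and Ebf3 in 3, and the dimmer Ebf4 probe in 1. With the mitral and tufted cell list, Ebf2 and the brighter Ebf4 probe shared the sign in 3 pools and the other probes in 2. The mitral and tufted cell list differed by at most 0.06 between arrays of a pool.

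The difference of Ebf2 between duplicates was not shared by the spots around it. Among the 148 passing spots within 10 rows and columns, the median difference between the arrays was 0.00 (EE-DE), 0.01 (C-C), 0.02 (C-DE) and 0.09 (EE-C). Around Ebf1 it was 0.09 in EE-C, beside 0.21 for Ebf1 itself. By the methods both arrays of a pool received the same RNA, and the source of these differences was not tested.

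**Figure D4:**
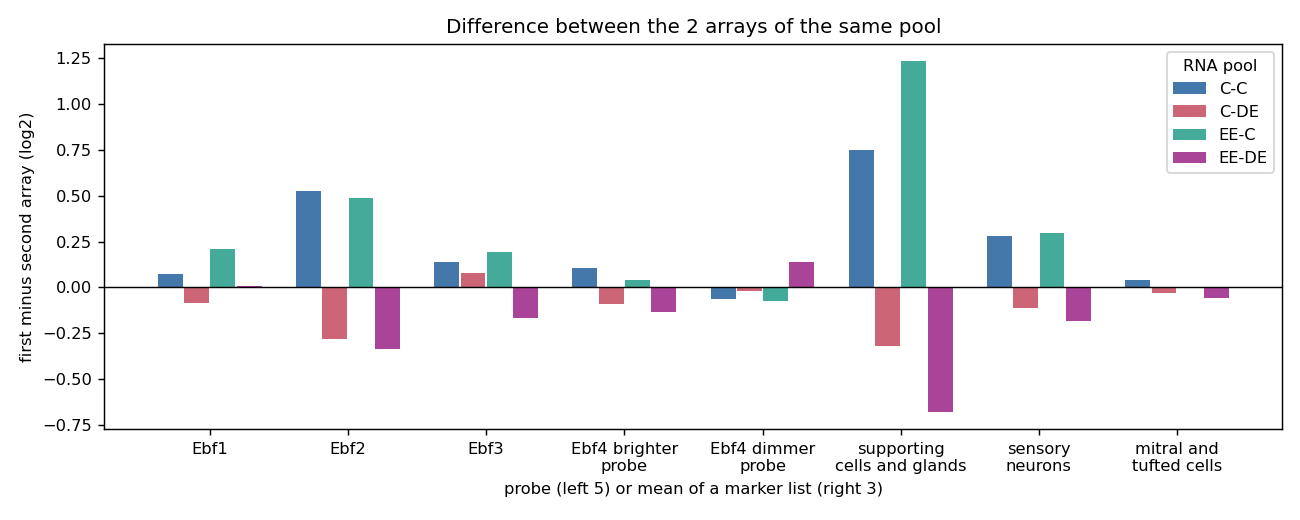
Difference between the first and second array of the same RNA pool (vertical axis, log2) for the 5 Ebf probes and the means of 3 marker lists (horizontal axis), with 1 bar per pool. Ebf2 is above 0 in C-C and EE-C and below 0 in C-DE and EE-DE, as are the plotted lists of supporting cells and glands and of sensory neurons, while mitral and tufted cell genes stay within 0.06.

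Ebf proteins bind the palindrome TCCCNNGGGA, and this motif was searched on both strands in the promoters of a RefSeq table on GRCm38.p6, from 250 bases before to 50 after each gene's start. It was present for 287 of 27025 genes (1.06%). Ebf1, Ebf3 and Ebf4 have an entry in the table, and the motif was in 0 of these 3. Among the first 20 gene names by likeness to Ebf2, 17 had an entry and 1 held the motif: Sec14l3, a lipid-binding protein of the mucosa list, whose brighter probe had an r of 0.976 with Ebf2 and fell by 1.48 in C-DE/C-C. The dimmer Sec14l3 probe had an r of 0.961 and a change of −0.62 in that comparison. The motif, in capitals, begins 29 bases before the gene's start and is shown since it is the 1 match among the genes that moved with Ebf2.
Sec14l3 promoter (GRCm38.p6, chr11:4064799-4064852, plus strand): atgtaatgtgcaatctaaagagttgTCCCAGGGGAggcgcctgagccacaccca
In the sensory neuron list 1 of 10 genes with an entry held the motif (Gfy), in the supporting cell and gland list 1 of 11 (Sec14l3), in the B cell list 1 of 5 (Cd22) and among the partners 1 of 6 (Foxo1). No probe of the array carries the name Gfy, so this gene has no level here. The motif was in 0 of 2 genes known for Olf-1 sites, in 0 of 5 B cell targets of Ebf1 and in no gene of the other 8 lists. With so few genes a list, these counts are not read against the share of all genes. A match is a description of these letters and not a bound site, and other spellings of the site were not searched.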

How the data were processed

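The authors deposited intensity values in Agilent Feature Extraction files (version 10.7.3.1 in the submitters' processing notes): background-subtracted processed signals, not scaled between arrays. The deposited log2 values of the series table, made by the authors, differed from the values used here by at most 0.01 for Ebf probes after the same centring. That table was an alternative.

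Log2 processed signals minus each array's 75th percentile were computed. Spots of a probe were averaged, and probes with an accession, well above background on all 8 arrays and without outlier flags were kept (21709). Changes are differences of pool means with their range over 4 pairings, called at 1.5-fold. Arrays were grouped by their labels. Named are all Ebf probes, list genes that define their list or changed at least 1.5-fold, and the 5 names most like Ebf2. Members and lists were chosen with earlier results of these data known. Calling was tested on simulated data. Python 3.11.15 (numpy 2.4.6, pandas 2.3.3, matplotlib 3.10.9) and R 4.3.3 (limma 3.58.1, normexp and quantile alternatives) were used. Alternatives also changed the scale, the filters, the averaging and the threshold, or left out each array. The sequence of the brighter Ebf4 probe is not reported here.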

Additional observations from a re-analysis of the deposited data

Results flagged for a closer look

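For 3 Ebf probes the change with exhaust had opposite signs in the rearing environments in every pairing of arrays, lower in C-DE/C-C and higher in EE-DE/EE-C, which 2.16% of all 21709 probes showed. The signed difference, the EE-DE/EE-C change minus the C-DE/C-C change, was 1.30 on the log2 scale for Ebf2, 0.63 for Ebf3 and 0.37 for the dimmer Ebf4 probe. Without the first EE-DE array these were 1.46, 0.71 and 0.30. A difference of at least 1.5-fold in this direction was found in 1.15% of all probes, and 35 probes had one as large as that of Ebf2. For Ebf1 and the brighter Ebf4 probe it was 0.33 and 0.15, with pairings of both signs in EE-DE/EE-C. Each group is 1 pool, so whether the changes differ between the rearing environments was not tested, and rearing cannot be told apart from the slide column.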

How the results depend on the processing

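The count of Ebf probes past 1.5-fold in C-DE/C-C, 1 in the report, was 0 with normexp background correction, with 1.5-fold required in all 4 pairings and at a 2-fold threshold, and 0 to 1 with each array left out (0 without the first C-C or the first C-DE array). In EE-DE/EE-C, where Ebf2 lay just over the threshold, it was 0 under those 3 settings and also with the median as the scale, with the authors' series table and with linear signals averaged, and 0 to 1 with each array left out (0 without the second array of either pool). The count for EE-DE/C-DE was 0 only at 2-fold and 1 with each array left out. Ebf2 itself kept its direction in these comparisons: with each array left out its change was −0.97 to −0.44, 0.34 to 0.83 and 0.83 to 1.16 in that order, and −0.73 to −0.46, 0.47 to 0.60 and 0.71 to 1.00 under the other alternatives. The sign of changes near 0 was less stable: the dimmer Ebf4 probe in EE-C/C-C went from −0.05 to 0.03 under normexp, and with each array left out the changes ran from −0.06 to 0.15 for Ebf1 and −0.02 to 0.11 for the brighter Ebf4 probe in EE-DE/EE-C, from −0.04 to 0.13 for Ebf3 in EE-DE/C-C, and from −0.21 to 0.00 for Ebf1 in EE-C/C-C. The share of all probes past 1.5-fold with each array left out was 0.516% to 1.00% in C-DE/C-C (highest without the second C-C array), 0.977% to 1.82% in EE-DE/EE-C and 0.848% to 1.83% in EE-C/C-C (both highest without the EE-C array numbered 2), 0.673% to 1.21% in EE-DE/C-DE and 0.875% to 1.36% in EE-DE/C-C (both highest without the second EE-DE array), and 1.29% in EE-DE/C-C with probes of any systematic name. Of the 25 changes of single Ebf probes, 9 moved by more than the SD between duplicates under normexp and 0 with the series table, quantile normalization, the median scale or linear signals. The looser filters left all 25 identical, and leaving out 1 of 2 arrays cannot move a change past that SD, so neither bears on stability. Leaving out arrays for the lists, their genes and the difference of the exhaust changes was added after seeing the data. The cause was not tested. No paired analysis was possible because each group is 1 pool without a test, and the mean of the differences between arrays of the same number equals the change between pools. The signal over background limits the dimmer Ebf4 probe most.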
